A study of Rattus norvegicus with 30 samples.

Results

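Of the 17322 genes measured by RNA sequencing of rat testis, 36 were chosen by their measured level as transiently raised early in organ culture. The rule took the mean over the libraries of a group of FPKM (fragments a level scaled to transcript length and to the mapped reads of the library), asked for a mean of at least 3 FPKM on day 6 of culture (D6), and asked that this mean be at least 2 times each of the means at 8.5 days postpartum (dpp, the starting tissue), at 14.5 dpp (the in vivo age equal to D6) and on day 28 of culture (D28). The values in those 4 groups therefore describe the genes and were not tested. At D6, 8805 genes reached 3 FPKM, and 280 of these were at least 2 times both young in vivo means. The 36 genes are those of the 280 that were also at least 2 times the D28 mean, and the other 244 serve below as the genes raised at D6 that did not come down as far.

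The animals were Wistar Han rats. In vivo groups were whole testes of 6 ages, 8.5 and 14.5 dpp, then 24.5 and 30.5 dpp, and lastly 36.5 dpp and the adult age of 53.5 dpp, with 3 libraries each. For culture, testes of 8.5 dpp rats were cut into 6 fragments and kept on agarose at the gas-liquid interphase, in minimum essential medium α with knockout serum replacement, retinol and vitamin E, for 6, 16, 22 or 28 days, with 3 libraries per time. Every cultured group carried the same supplements, and no group cultured without them enters here. The ages that match the later cultures are 24.5 dpp for D16, 30.5 dpp for D22 and 36.5 dpp for D28. The study itself did not use D6 when it compared cultures with 14.5 dpp testes, giving a different cellular composition as the reason. The part of cell composition in the D6 levels was not tested here. Each cultured library was a pool of explants from several males with the necrotic centre of the explant cut away, so a library is not 1 animal. One 14.5 dpp library, which its label calls an outlier, is listed at 0 for every gene and was left out, leaving 2 libraries at that age and 29 in all. The libraries had between 12520 and 13563 genes above 0, and their read depth is unknown because the values are normalised.

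Cells keep their cholesterol in balance through a transcription factor, SREBP2, that switches on sterol synthesis enzymes when membrane sterol is low. When amino acids run short or proteins misfold in the endoplasmic reticulum, the factor ATF4 raises amino acid transporters, biosynthetic enzymes and feedback regulators such as TRIB3. Tissue injury brings out chemokines, adhesion molecules and matrix proteases in somatic cells and macrophages, and in the prepubertal testis the somatic cells concerned are Sertoli, peritubular myoid, Leydig, endothelial and interstitial macrophage cells.

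The genes fell into 4 groups by known role, assigned after the genes were known: 6 of sterol and fatty acid synthesis or uptake, 6 of amino acid supply and stress feedback, 9 coding for chemokines, adhesion, matrix or leukocyte proteins, and 9 transcription regulators, signalling proteins and others. These make 30 genes. The remaining 6 (Rpl30, Rpl6, Rpl19, Cox17, Atp5po and Nucb2) are listed at 0 in some libraries of a group and at 5 FPKM or more in others of the same group, and they are given apart at the end.

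Promoter sequences are shown first for 5 genes chosen because searched motifs occurred in them, 3 of the amino acid and stress group and both chemokines. The sequences come from RefSeq on the GRCr8 assembly, from 250 bases before the annotated start of the gene to 50 after it. The expression values were made on the rn6 assembly, so these positions are not those of the expression files. Of the 36 genes, 27 had an entry, with 29 windows between them. In the first 3 sequences the capitals mark TGATGNAA or its reverse complement, a part of the amino acid response element that C/EBP-ATF4 pairs recognise. The windows are chr3:161275484-161275783, minus strand, for Trib3, chr3:126795881-126796180, plus strand, for Chac1, and chr14:98761513-98761812, minus strand, for Slc1a4.
Trib3: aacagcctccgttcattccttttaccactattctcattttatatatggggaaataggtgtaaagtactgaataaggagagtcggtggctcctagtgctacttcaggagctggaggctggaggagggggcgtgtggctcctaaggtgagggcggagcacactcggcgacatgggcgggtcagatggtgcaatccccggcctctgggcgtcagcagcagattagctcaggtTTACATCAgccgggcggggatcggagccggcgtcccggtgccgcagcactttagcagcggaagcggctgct
Chac1: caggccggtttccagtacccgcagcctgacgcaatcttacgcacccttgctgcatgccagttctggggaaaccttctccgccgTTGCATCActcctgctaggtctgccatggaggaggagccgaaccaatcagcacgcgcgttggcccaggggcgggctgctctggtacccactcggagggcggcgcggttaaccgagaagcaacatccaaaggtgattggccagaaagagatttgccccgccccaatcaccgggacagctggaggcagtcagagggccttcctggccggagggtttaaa
Slc1a4: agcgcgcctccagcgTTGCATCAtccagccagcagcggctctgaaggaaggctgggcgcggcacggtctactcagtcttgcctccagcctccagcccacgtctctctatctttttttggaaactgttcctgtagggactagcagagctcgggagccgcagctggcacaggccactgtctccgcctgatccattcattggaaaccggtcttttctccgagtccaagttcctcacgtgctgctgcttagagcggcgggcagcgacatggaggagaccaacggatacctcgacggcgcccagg

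Counted from 0 at the annotated start, this element began at -21 in Trib3, at -167 in Chac1 and at -235 in Slc1a4. It occurred in 4 of the 27 genes with an entry, the other being Rpl6. It stood in 3.98% of all 33365 rat promoter windows and in 1.98% of the 7618 windows of genes with at least 3 FPKM at D6. Bcat1, also of the amino acid group, had a window without it, while Slc7a3 and Aldh1l2 had no entry. The motif was added to the search after the genes were known, and a match of these letters is a description of the window only.

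The next 2 windows are chr14:15988816-15989115, plus strand, for Cxcl10, and chr14:15973478-15973777, plus strand, for Cxcl11, a pair of neighbouring chemokine genes. The capitals mark matches to the NF-kB motif and to the AP-1 motif TGANTCA, on either strand.
Cxcl10: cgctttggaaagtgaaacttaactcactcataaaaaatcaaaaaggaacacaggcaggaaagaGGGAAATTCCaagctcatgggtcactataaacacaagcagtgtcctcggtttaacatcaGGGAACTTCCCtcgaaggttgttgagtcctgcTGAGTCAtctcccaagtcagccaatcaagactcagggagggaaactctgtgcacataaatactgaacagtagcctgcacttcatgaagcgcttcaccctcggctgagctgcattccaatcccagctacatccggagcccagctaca
Cxcl11: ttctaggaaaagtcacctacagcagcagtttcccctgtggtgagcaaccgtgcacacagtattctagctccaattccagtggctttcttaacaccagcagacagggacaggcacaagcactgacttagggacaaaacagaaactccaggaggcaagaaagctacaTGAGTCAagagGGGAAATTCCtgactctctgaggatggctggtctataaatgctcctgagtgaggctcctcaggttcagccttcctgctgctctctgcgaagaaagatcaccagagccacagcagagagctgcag

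NF-kB matches began at -187 and, as an overlapping pair, at -128 and -127 in Cxcl10, and at -74 in Cxcl11. AP-1 matches began at -96 in Cxcl10 and at -85 in Cxcl11. No other of the 27 genes held an NF-kB match, which 7.53% of all windows and 9.98% of the windows of genes expressed at D6 held. The AP-1 motif occurred in 1 further gene, Msmo1, and stood in 7.34% of all windows and 4.71% of those expressed at D6. The sterol regulatory element TCACNCCAC, also added after the genes were known, was in none of the 29 windows and in 1.12% of all windows. The cyclic AMP element TGACGTCA (1.83% of all windows) and the CArG box of serum response factor (1.63%) were likewise in none, the TATA box TATAAA was in 5 genes (14.2% of all windows), TTNNGNAA, a loose C/EBP motif, in 8 (41.3%), and GAAANNGAA, an interferon-response motif, in 6 (9.71%). The windows of the chosen genes had a median GC content of 58.3%, against 61.3% for the windows of genes expressed at D6 and 51.7% for all windows.

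Of the 4 role groups, the amino acid and stress group had the lowest median D16 level, 22.9% of D6. Trib3, Slc7a3 and Chac1 fell furthest, to 13.5%, 15.1% and 16.4%, while Bcat1, Slc1a4 and Aldh1l2 kept 29.4%, 38.0% and 40.1%. Sectm1b, Cxcl11 and Cxcl10 of the chemokine, adhesion, matrix and leukocyte group fell to 18.1%, 21.1% and 22.7%. Trib3, a pseudokinase that ATF4 induces and that feeds back on it, measured 12.0, 16.1 and 12.9 FPKM in the D6 libraries. In vivo it did not exceed 0.301 FPKM in any library and was listed at 0 in all 3 libraries of 24.5 dpp and of 53.5 dpp. At D16 its level was 1.74, 2.01 and 1.78 FPKM, which was 13.5% of the D6 mean. It then stood at 3.72, 3.31 and 5.26 FPKM at D22 and at 3.68, 1.85 and 2.55 FPKM at D28, so all D22 libraries lay above all D16 libraries and all later cultures lay below D6.

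Chac1, an enzyme that degrades glutathione and another ATF4 target, followed the same course on a background that was not silent in vivo. Its level was 9.526, 8.608 and 10.998 FPKM at D6, against 0.714 to 0.869 FPKM at 8.5 dpp and 1.67 and 1.97 FPKM at 14.5 dpp. At D16 it measured 1.49, 2.00 and 1.31 FPKM and at D28 2.29, 1.92 and 1.38 FPKM, both overlapping the 14.5 dpp libraries. Slc7a3, a transporter of cationic amino acids, reached 3.26, 3.84 and 2.85 FPKM at D6, at most 0.199 FPKM in any testis library, and 0.390 to 0.593 FPKM at D16. Its D6 mean was 6.00 times the highest of the 3 reference means, which was that of D28. The same ratio was 5.21 for Chac1 and 5.07 for Trib3.

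Bcat1, the cytosolic aminotransferase that starts the breakdown of branched-chain amino acids, measured 13.7, 14.7 and 15.9 FPKM at D6 and 3.11 to 3.25 FPKM at 8.5 dpp. It kept 29.4% of the D6 mean at D16 and 43.4% at D22. Aldh1l2, a mitochondrial enzyme of folate one-carbon metabolism, had a mean of 3.08 ± 0.24 FPKM (SD, n = 3) at D6 and 1.24 ± 0.17 FPKM at D16. Slc1a4, which carries neutral amino acids such as alanine and serine, differed from the others in its in vivo course: it was at 6.66, 7.38 and 8.68 FPKM at D6 but at 42.8, 56.1 and 46.3 FPKM in the testis at 30.5 dpp. Of the 30 genes, all chosen for a high D6 level, it was the only one whose D6 libraries did not exceed every in vivo library.

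From the list of 13 amino acid and endoplasmic reticulum stress genes, 12 reached 3 FPKM at D6, and 6 of them were higher at D6 than in all 3 reference means. Trib3 and Chac1 were among the 6 and had to be, and these are groups the rule used. Over all 8805 genes expressed at D6, 14.7% were higher than all 3. Atf4 itself, at 305 FPKM at D6, had 228 at 8.5 dpp, 161 at 14.5 dpp and 201 at D28 (group means). Ddit3, coding for the stress factor CHOP, had group means of 46.4 FPKM at D6 and 32.1 at D28, and Asns, asparagine synthetase, 58.4 and 43.0. Hspa5, the chaperone BiP of the endoplasmic reticulum, was not higher at D6 (404 FPKM) than at 8.5 dpp (469 FPKM). The median ratio of the D6 mean to the highest reference mean over the 12 genes was 1.10, against 0.819 over all 8805 genes.

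The 3 highest D6 means among the 30 genes were those of sterol genes. Msmo1, a methyl sterol oxidase of cholesterol synthesis, measured 131, 127 and 86.7 FPKM at D6, 32.5 to 38.1 FPKM at 8.5 dpp and 45.6 and 51.9 FPKM at 14.5 dpp. Insig1, the endoplasmic reticulum anchor that holds SREBP back, measured 99.2, 93.9 and 74.2 FPKM at D6 and 34.7 to 42.2 FPKM at D16. Cyp51, lanosterol demethylase, measured 73.8, 76.6 and 54.4 FPKM at D6. All D6 libraries of these 3 genes lay above every other library of the series, with D6 replicate 3 the lowest of its group in each.

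Cyp51 also rose in vivo with age, to 28.6, 44.9 and 54.1 FPKM at 53.5 dpp, so its highest adult library came within 1 FPKM of its lowest D6 library. Scd, which desaturates fatty acids, went from 1.54 to 1.74 FPKM at 8.5 dpp to 12.1, 10.6 and 11.5 FPKM at D6. Tm7sf2, a sterol reductase, measured 7.07, 5.22 and 6.13 FPKM at D6 and 0.635, 1.07 and 1.17 FPKM at D28, which was 15.6% of D6 and within or below the range of its 8.5 dpp libraries.

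Other genes of the pathway were also higher at D6. All 11 genes of the sterol synthesis and uptake list were higher at D6 than in each of the 3 reference means, which held for 14.7% of the 8805 genes expressed at D6, and 10 of them had their highest mean of all 10 groups at D6. Of these 11, 4 are among the 36 genes, Scd, Insig1 and Cyp51 included, and had to be higher, and the groups are those the rule used. Hmgcs1, coding for HMG-CoA synthase, had group means of 155 FPKM at D6, 81.4 at D16 and 48.8 at 8.5 dpp. Sqle, squalene epoxidase, had 47.4 FPKM at D6 and 21.1 at D16. The median ratio to the highest reference mean was 1.80 over the list. The list holds genes of related pathways, which may move together, and was taken up with earlier results of these data known. Its count is therefore a description and supports nothing.

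**Figure D1:**
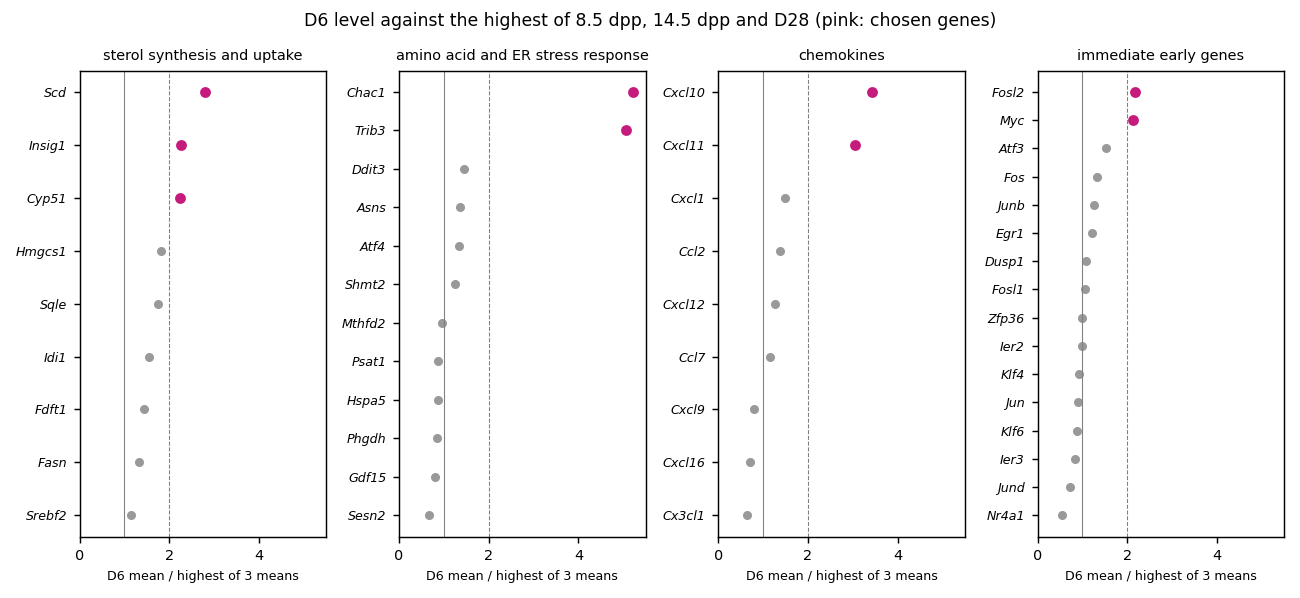
Ratio of the D6 group mean to the highest of the 8.5 dpp, 14.5 dpp and D28 group means (horizontal axis, no unit) for genes of 4 lists with at least 3 FPKM at D6, of which 9 of the 11 sterol genes are shown. Each point is a gene, pink points are among the 36 chosen genes, the solid line marks a ratio of 1 and the dashed line the rule's ratio of 2, and all 9 sterol genes shown lie right of 1.

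The chemokine, adhesion, matrix and leukocyte genes differed in how far above the starting tissue they stayed after D6. Cxcl10, an interferon-induced chemokine that draws activated T cells, measured 47.8, 31.4 and 39.8 FPKM at D6 and 1.71 to 2.57 FPKM at 8.5 dpp. It stood at 7.20 to 11.8 FPKM at D16 and 11.4 to 12.1 FPKM at D28, above every in vivo library. Cxcl11, a second ligand of the same receptor, reached 3.910, 2.501 and 2.888 FPKM at D6 and 0.456 to 0.794 FPKM at D16. Both lay lower at D16 than at D22 and D28 by their group means.

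Icam1, the adhesion molecule that leukocyte integrins bind, measured 30.4, 24.5 and 27.2 FPKM at D6, 4.34 to 5.66 FPKM at 8.5 dpp and 9.02 to 12.4 FPKM at D16. Mmp9, gelatinase B, was at 0.150 to 0.245 FPKM at 8.5 dpp and at 43.7, 40.6 and 54.6 FPKM at D6. It stayed at 18.8 to 40.0 FPKM in the 9 later culture libraries, so its D28 level, although at most 50% of D6, remained the farthest from the testis of all 30 genes: 107 times the higher young in vivo mean. Adamts4, an aggrecanase, had a mean of 4.68 ± 0.50 FPKM (SD, n = 3) at D6 and 2.20 ± 0.25 FPKM at 8.5 dpp. Thbs1, thrombospondin 1, and Tgfbi, a TGF-β-induced matrix protein, measured 9.84 to 11.7 and 18.8 to 19.6 FPKM at D6 and 3.03 to 3.30 and 8.14 to 9.81 FPKM at D28.

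Sectm1b, coding for a secreted and transmembrane protein, was at 9.44, 6.55 and 11.6 FPKM at D6 and 1.39 to 1.87 FPKM at D16, below its 8.5 dpp libraries at 2.11 to 2.96 FPKM. Cd8a, the CD8 α chain of T cells and in the rat also of some other leukocytes, took a slower course than the rest. It measured 24.31, 24.98 and 23.35 FPKM at D6, 21.8, 17.9 and 18.3 FPKM at D16, 12.2, 12.7 and 16.2 FPKM at D22 and 8.67, 11.4 and 9.72 FPKM at D28, the 4 culture groups not overlapping. Its D16 mean was 79.9% of D6, the highest share among the 30 genes. In vivo its highest value was 8.11 FPKM, in 1 of the 2 libraries at 14.5 dpp, while the other library at that age had 2.49 FPKM.

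The T cell genes Cd3e and Cd8b did not share the level of Cd8a. In the cultured libraries Cd3e did not exceed 1.21 FPKM, and Cd8b, the partner chain, did not exceed 0.264 FPKM. Cd3d is listed at 0 in them, as in nearly all testis libraries, and tells nothing. Cd4, another of the T and B cell markers, was also lower than Cd8a in culture but took a different course. Its D6 mean of 3.53 FPKM lay above its highest testis mean, 2.82 FPKM for the starting tissue. Later cultures were higher still, with means of 5.76 (D16), 6.93 (D22) and 6.13 FPKM (D28). The sum of 6 T and B cell markers, Cd8a included, was 28.3 to 29.7 FPKM at D6 and 24.7 to 28.7 FPKM at D16, and most of it was Cd8a. The summed level of 8 macrophage markers was 66.9 to 82.5 FPKM at D6, 86.9 to 90.5 at D16, 78.7 to 97.0 at D22 and 93.9 to 127 at D28. At 8.5 dpp it was 50.0 to 64.8 FPKM. The sum did not come down after D6, but most of it was Lyz2, with group means of 47.0 FPKM at D6, 60.9 at D16 and 72.1 at D28. On the same days Csf1r had 3.12, 2.64 and 3.15 FPKM and Mrc1 6.67, 7.60 and 8.92, while Cd163 was listed at 0. Neutrophil markers, 9 in all, summed to at most 2.49 FPKM at D6.

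From the chemokine list, 9 genes reached 3 FPKM at D6 and 6 of these were above all 3 reference means. Cxcl10 and Cxcl11 were among the 6 and had to be, and these are groups the rule used. Over all 8805 genes expressed at D6, 14.7% were above all 3. Ccl2, a monocyte chemokine outside the rule, had group means of 31.0 FPKM at D6, 23.3 at D16 and 22.5 at D28, so it kept more of its D6 level than Cxcl10. From the list of matrix metalloproteinases and inhibitors, 9 genes reached 3 FPKM and 6 were above the 3 references, Timp1 among them with 50.8 FPKM at D6 and 25.3 at D28. Mmp9 and Adamts4, also among the 6, had to be. Mmp14 and Mmp2, proteases of the same list, had 158 and 45.5 FPKM at D6 and 145 and 40.4 at D28.

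**Figure D2:**
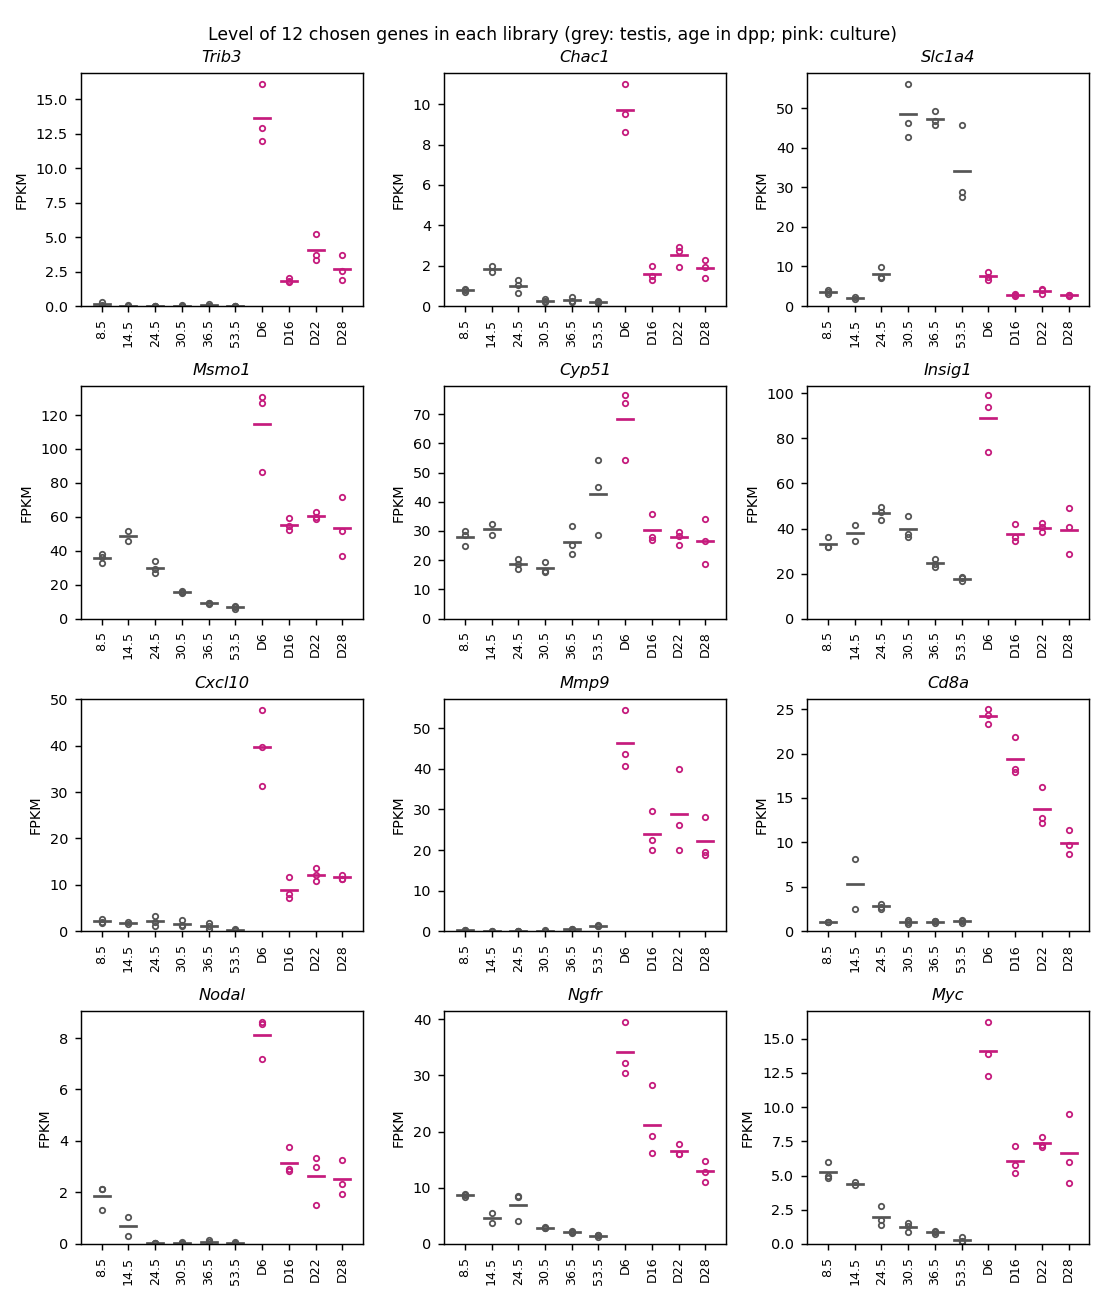
Level in FPKM (vertical axis, linear, from 0) of 12 of the chosen genes in every library, by age in dpp for testes (grey) and by day for cultures (pink). Open circles are libraries and bars are group means, and the D6 circles lie above all other culture circles in each panel, while Slc1a4 is higher in testes from 30.5 dpp on.

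The transcription regulators were Myc, Fosl2 and Cited4. Myc, which drives growth and ribosome synthesis, measured 13.9, 12.3 and 16.2 FPKM at D6, 4.82 to 5.99 FPKM at 8.5 dpp and 5.18 to 7.12 FPKM at D16. Fosl2, an AP-1 subunit, measured 4.48, 8.76 and 9.16 FPKM at D6, and its lowest D6 library was only just above its highest D28 library of 4.37 FPKM. Cited4, a co-activator that binds CBP and p300, had 16.1 ± 2.0 FPKM (SD, n = 3) at D6 and 7.31 ± 0.56 FPKM at 8.5 dpp. Of 16 immediate early genes expressed at D6, 8 were above all 3 reference means, as were 14.7% of all 8805 genes expressed at D6. Myc and Fosl2 were among the 8 and had to be. Junb, with group means of 60.9 FPKM at D6, 35.3 at D16 and 48.5 at D28, and Atf3, with 13.9, 9.88 and 9.08 FPKM, did not meet the rule.

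Nodal, a TGF-β family ligand known for patterning the embryo and for a role in early male germ cells, measured 7.18, 8.61 and 8.55 FPKM at D6 and 1.32 to 2.13 FPKM at 8.5 dpp. In vivo it fell below 0.15 FPKM in all 12 libraries from 24.5 dpp on, and in culture it stayed at 1.52 to 3.75 FPKM from D16 to D28. Ngfr, the low-affinity neurotrophin receptor p75, measured 32.2, 30.5 and 39.5 FPKM at D6 and 28.3, 19.2 and 16.1 FPKM at D16, against 8.42 to 8.86 FPKM at 8.5 dpp. Pde2a, a cyclic nucleotide phosphodiesterase, and Ptprn, a protein of secretory granules, had 7.73 ± 1.11 and 5.04 ± 0.78 FPKM (SD, n = 3) at D6.

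Ptprn was one of 3 genes whose highest in vivo level was the adult one, at 1.91 to 3.86 FPKM at 53.5 dpp. Apold1, an endothelial early response gene, measured 6.49 to 6.84 FPKM at D6 and 2.54 to 4.52 FPKM at D28. The sum of 7 endothelial markers was 91.5 to 103 FPKM at D6 and 61.8 to 103 FPKM at D28. Tmprss13, a membrane serine protease, was at 11.5 to 12.0 FPKM at D6, did not exceed 1.04 FPKM in vivo and was at 2.92 to 5.33 FPKM at D28.

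The rule did not use D16 or D22, and these groups describe the course between D6 and D28. The D16 mean was at most 50% of the D6 mean in 24 of the 30 genes, and so was the D22 mean. Among the 244 other genes raised at D6 this held for 16 at D16 and 8 at D22, and among all 8805 genes for 147 and 179. Relative to D6, the median level of the 30 genes was 39.5% on day 16, 42.9% on day 22 and 38.1% on day 28, and that of the 244 was 95.2%, 104% and 106%. Because the D6 group chose the genes, a lower value in any other group is partly built in. The D28 mean also separated the 30 genes from the 244. Their contrast at D28 is therefore fixed, and that at D16 and D22 may follow from it, so the 244 are no independent control. No test is given.

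In all 30 genes the highest library of D16, of D22 and of D28 lay below the lowest D6 library. As D6 and D28 chose the genes, this was partly built in, and the share over all genes was not computed. The genes that kept over 50% of D6 at D16 were Cd8a, Ngfr, Tgfbi, Apold1, Mmp9 and Pde2a. By role the median D16 share was lowest in the amino acid and stress group, at 22.9% with a range of 13.5% to 40.1%, then 37.9% in the chemokine, adhesion, matrix and leukocyte group, 40.1% in the sterol group and 42.7% in the last group. The lowest culture group by mean was D16 in 12 genes, D22 in 2 and D28 in 16.

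At D28, 26 of the 30 genes were still above the higher of the 8.5 and 14.5 dpp means, and 8 were at least 2 times it. The median D28 level was 1.31 times that mean in the 30 genes, 3.21 times in the 244 other raised genes and 0.838 times in all 8805. The rule used these groups, so the split by role only describes the genes and was not tested. By role these 8 comprised 4 of 9 in the chemokine, adhesion, matrix and leukocyte group, 2 of 6 in the amino acid group, 2 of 9 in the last group and none of 6 in the sterol group. The median D28 level was 1.05 times the higher young in vivo mean for sterol genes, 1.37 for amino acid genes, 1.87 for the chemokine and matrix group and 1.49 for the rest.

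**Figure D3:**
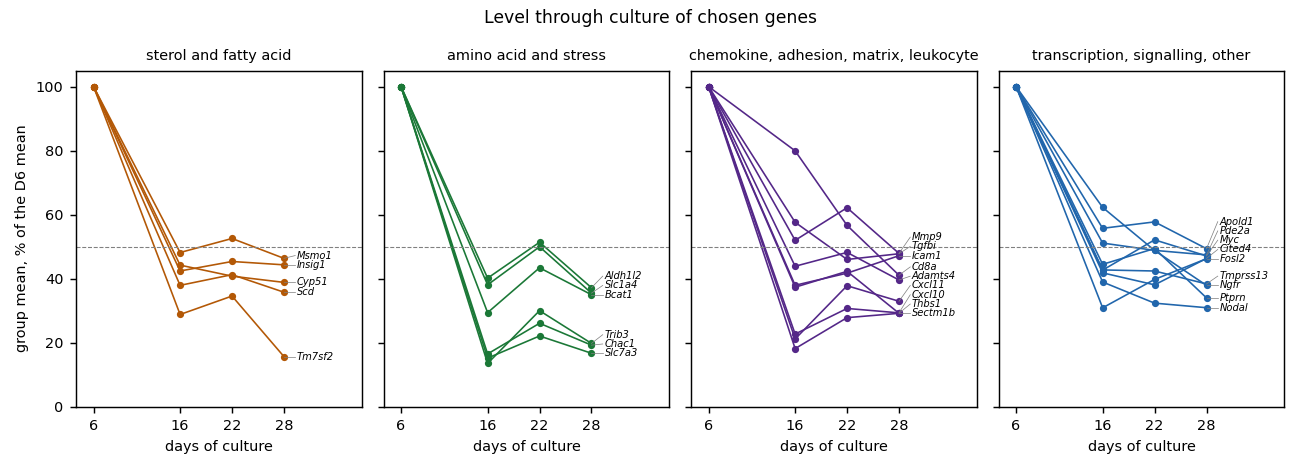
Group mean as a percentage of the D6 mean (vertical axis) on culture days 6, 16, 22 and 28 (horizontal axis) for 29 of the 30 genes, in 4 panels by role. Each line is a gene and the dashed line marks 50%, and by D16 all lines but 6 are at or below it, Cd8a being highest at 79.9%.

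Marker levels of the somatic cell types also differed between these days. The summed level of 10 Sertoli cell markers was 1233 to 1453 FPKM at D6 and 2301 to 2640 FPKM at D16, that of 6 peritubular myoid markers was 198 to 384 FPKM at D6 and 82.8 to 149 FPKM at D16, and that of 7 Leydig markers was 16.8 to 24.3 and 17.6 to 21.0 FPKM. At 8.5 dpp these sums were 752 to 956, 690 to 738 and 239 to 339 FPKM, so Leydig markers were low in culture. The Sertoli sum was carried mainly by Clu, with group means of 486 FPKM at D6 and 1512 at D16, while Amh had 80.4 and 31.9, Sox9 50.9 and 46.6, and Wt1 178 on both days. In bulk tissue, fewer cells of a type and less RNA per cell cannot be told apart. The part of these markers' cell types in the decline was not tested.

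Tests were made only between groups that the rule did not use, with limma on log2(FPKM + 1) across every gene whose median reached 0.5 FPKM in either group. A gene was called at a Benjamini-Hochberg adjusted p of at most 0.05 together with a ratio of medians of at least 2. Differences on this scale understate the change of low genes. These comparisons share libraries with each other.

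Between D16 and D22 none of the 32 chosen genes tested was called in limma, against 0.162% of all 11134 genes tested (18 genes). An unadjusted p under 0.05 was found for 12 of the 32, or 37.5%, and for 1646 of all genes, or 14.8%. By their means, 22 of the 30 genes were higher and 8 lower at D22, with a median log2 difference of 0.13, against -0.0035 over all genes tested. Trib3 came nearest, with 1.84 ± 0.15 FPKM (SD, n = 3) at D16 and 4.10 ± 1.03 FPKM at D22, a log2 difference of 0.82 (SE 0.14, limma adjusted p = 0.10). It was called when all 10 groups were fitted together, a fit whose spread also came from libraries that the rule used. Cd8a, lower at D22 by its libraries, had a log2 difference of -0.47 (SE 0.13, limma adjusted p = 0.21).

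D16 cultures were set against testes at 24.5 dpp. Of the 36 genes, 18 passed the filter in both groups, 14 through D16 alone, 2 through 24.5 dpp alone, and 2 in neither. A gene that passed through D16 alone had to be higher there. In limma, 22 were called higher in D16 than at 24.5 dpp, where 25.3% of the 11658 genes tested were, and 2 were called lower (Slc1a4 and Rpl6), where 18.3% of all genes were. Among the 18 chosen genes that passed in both groups, 10 were called higher and 1 lower, and among all 10092 such genes 22.4% were higher and 14.8% lower.

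Among the genes that passed in both groups, the largest rise was that of Cd8a, with a log2 difference of 2.41 (SE 0.11, limma adjusted p = 8.62e-06) from 2.82 ± 0.28 to 19.4 ± 2.1 FPKM (SD, n = 3). Icam1 followed with 2.02 and Cxcl10 with 1.71. Mmp9, Tmprss13 and Bcat1 passed through D16 alone and had differences of 4.54, 2.38 and 2.18, Mmp9 being at 0.0626 ± 0.0449 FPKM (SD, n = 3) at 24.5 dpp and 24.0 ± 5.0 FPKM at D16. Counting both kinds, called genes made up 8 of 9 in the chemokine, adhesion, matrix and leukocyte group, 8 of 9 in the last group and 4 higher and 1 lower of 6 in the amino acid group. These tallies include genes that passed through D16 alone and had to be higher, so they do not compare the roles. In the amino acid group only Chac1, not called, and Slc1a4, called lower, passed in both groups, while all 6 sterol genes did. In the sterol group 2 of 6 were called, Scd with a log2 difference of 1.01 (SE 0.20, limma adjusted p = 0.00329) being one.

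Insig1 was at 42.2, 36.4 and 34.7 FPKM at D16 and 47.2, 49.6 and 43.9 FPKM at 24.5 dpp, lower in culture in every library but not by 2 times. Msmo1 and Cyp51 passed the adjusted p (0.000489 and 0.00433 in limma) with log2 differences of 0.86 and 0.65 but missed the ratio of 2. Cxcl11, at 1.07 to 1.52 FPKM at 24.5 dpp, lay above all 3 of its D16 libraries, with a log2 difference of -0.45 (SE 0.12, limma adjusted p = 0.0135) and a ratio of medians under 2. From the full sterol list, 3 of 11 genes were called higher, Fasn and Scd among them, a share near the 25.3% of all genes, and none lower. From the amino acid list 5 of 13 were called higher, and from the chemokine list 9 of 14 higher and 2 lower. The matrix metalloproteinase list had 8 of 10 called higher and the immediate early genes 18 of 19. These list counts include genes that passed through D16 alone and had to be higher, such as Mmp9. Such genes were not counted apart, so the counts do not compare the lists with each other or with all genes.

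At D22 against 30.5 dpp, 24 of the genes were called higher by limma, where 42.1% of 12118 genes were, and Slc1a4 and Rpl6 lower, where 22.9% were. Of the 36 genes, 16 passed the filter in both groups, 14 through D22 alone, where they had to be higher, 3 through 30.5 dpp alone and 3 in neither. Among the 16 that passed in both, 10 were called higher and 1 lower, and among all 9846 such genes 41.3% were higher and 17.6% lower. The median log2 difference of all genes tested was itself 0.51, or 0.35 after quantile normalisation, so the changes of single genes are to be read relative to that shift. Of the genes that passed in both groups, Cd8a had 2.83 (SE 0.14, limma adjusted p = 1.83e-06), Icam1 2.53 and Cxcl10 2.35. Mmp9, Bcat1 and Tmprss13, which passed through D22 alone, had 4.59, 2.77 and 2.47. Slc1a4 was lower by 3.37 on the log2 scale in the sense D22 minus 30.5 dpp, with group means of 3.78 and 48.4 FPKM, and its limma adjusted p was 1.16e-06.

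Chac1 and Msmo1 were called higher at D22 against 30.5 dpp, while Cited4, Cxcl11, Cyp51, Insig1 and Tm7sf2 were called in neither of these comparisons. Insig1 and Tm7sf2 both had a log2 difference of 0.02 (SE 0.11 and 0.15). Beside the 42.1% of all genes, 3 of 11 genes of the sterol list were called higher, from the amino acid list 10 of 13 higher and 1 lower, from the chemokine list 9 of 14 higher, from the matrix metalloproteinase list 10 of 10 higher and from the immediate early genes 17 of 19 higher. These list counts again include genes that passed through D22 alone and had to be higher, such as Mmp9, and do not compare the lists. Whether a gene's difference changed from the first pair of ages to the second was not tested.

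**Figure D4:**
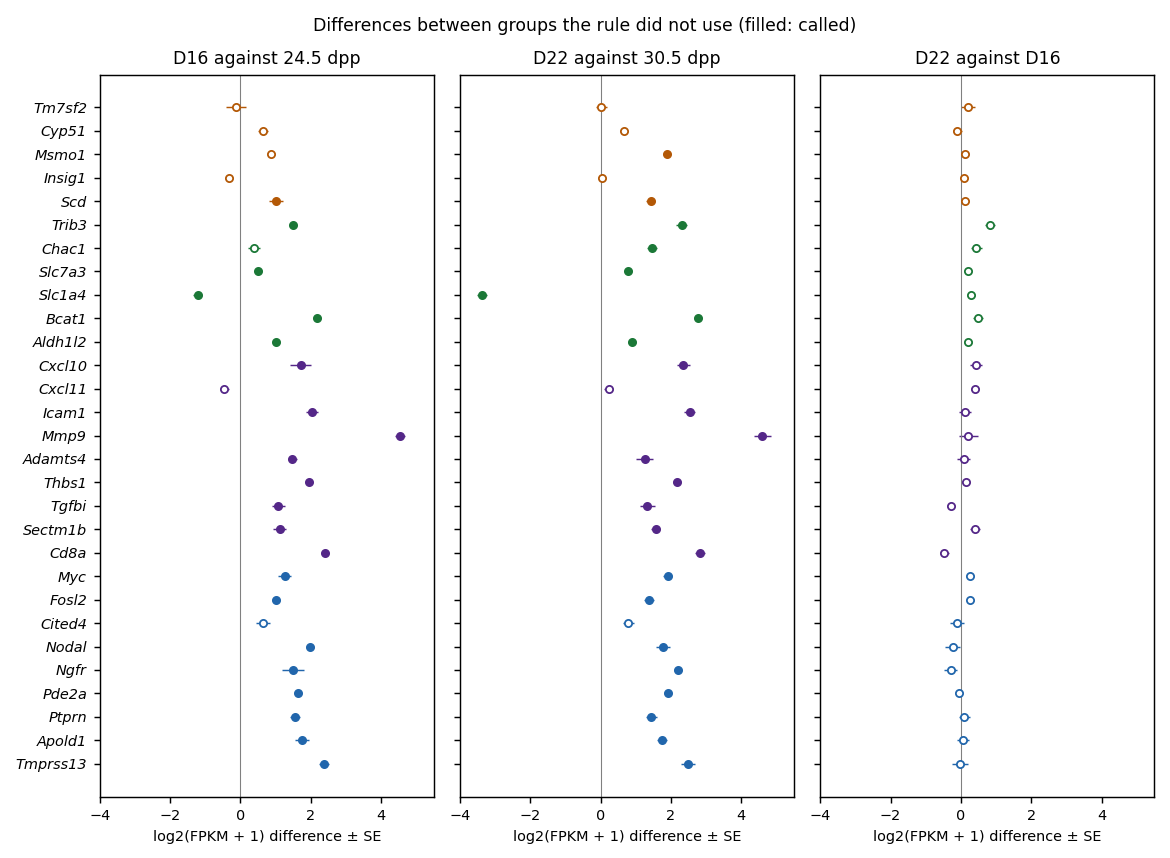
Difference in log2(FPKM + 1) (horizontal axis) with its standard error, 3 libraries per group, for 29 of the 30 genes in D16 against 24.5 dpp, D22 against 30.5 dpp and D22 against D16. Filled points were called, colours give the role groups (brown sterol, green amino acid, purple chemokine and matrix, blue the rest), and no point is filled in the last panel.

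In vivo maturation without culture was compared between 24.5 and 53.5 dpp, where 24 genes were tested, 11 having passed in both groups, 4 through 53.5 dpp alone, 9 through 24.5 dpp alone and 12 in neither. In limma, 17 were called lower in the adult, where 52.8% of 11662 genes were, and 5 higher (Slc1a4, Cyp51, Ptprn, Mmp9 and Cox17), where 16.7% were. Among the 11 that passed in both, 8 were lower and 2 higher, and among all 9596 such genes 52.8% were lower and 12.5% higher. The median of all genes was -0.82, or -0.42 after quantile normalisation. Msmo1 had a log2 difference of -2.02 (SE 0.13, limma adjusted p = 7.52e-06), Ngfr -1.65, Tgfbi -1.53 and Insig1 -1.35. Cyp51, of the same pathway as Msmo1, rose by 1.09 (SE 0.23, limma adjusted p = 0.00264), and from the sterol list 8 of 11 genes were called lower and 1 higher, Cyp51 itself. The sterol count includes genes such as Scd that passed through 24.5 dpp alone and had to be lower. Without the third 53.5 dpp library Cyp51 was no longer called.

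Of the 30 genes, 14 had their highest in vivo mean at 8.5 dpp, 8 at 14.5 dpp, 3 at 24.5 dpp, 2 at 30.5 dpp and 3 at 53.5 dpp. Germ cell markers, 7 in all, summed to 1064 to 1183 FPKM at 24.5 dpp and 109 to 132 FPKM at D16. Their part in the differences between culture and testis was not tested.

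The remaining 6 genes met the rule on values that include listed zeros. Rpl19, a ribosomal protein, was listed at 140 FPKM in 1 D6 library and 41.3 FPKM in 1 library at 14.5 dpp, and at 0 in all others. Rpl30, also ribosomal, was listed at 119, 73.3 and 0 FPKM at D6 and at 0 in every in vivo library. Rpl6 was listed at 0, 34.9 and 83.8 FPKM at D6 and at 20.7, 0 and 0 FPKM at D16. Every cell needs these proteins, so a listed 0 can be a failed estimate.

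Atp5po, an ATP synthase subunit, was listed at 0, 62.0 and 68.7 FPKM at D6 and at 0, 0 and 55.8 FPKM at 8.5 dpp. Cox17, a copper chaperone of cytochrome oxidase, was listed at 11.3, 24.5 and 12.2 FPKM at D6 and at 0, 26.6 and 0 FPKM at D22. Nucb2, a calcium-binding protein, was listed at 6.63, 9.79 and 6.85 FPKM at D6 and at 0, 6.96 and 0 FPKM at D28. Such zeros beside at least 5 FPKM occurred in 130 of the 8805 genes expressed at D6 and in 30 of 98 ribosomal protein genes. Rpl6 was listed at 0 in 2 of 3 libraries at D16 and in all 3 at D22, and Cox17 in all 3 at 24.5 dpp, so those calls include listed zeros.

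**Figure D5:**
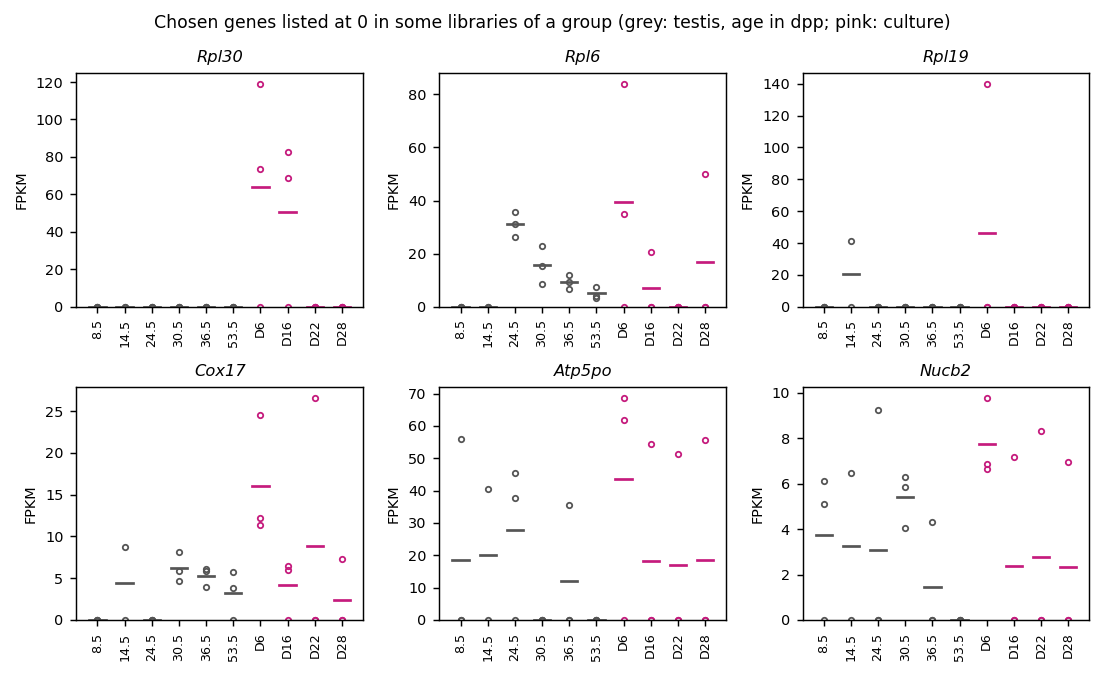
Level in FPKM (vertical axis, linear, from 0) of the 6 genes with listed zeros, in every library, by age in dpp for testes (grey) and by day for cultures (pink). Open circles are libraries and bars are means, and libraries of 1 group are split between 0 and higher values, as for Rpl19 with a single D6 library at 140 FPKM.

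Several genes lay close to the limits of the rule. Just inside the ratio of 2 were Apold1 at 2.03, Nucb2 at 2.07 and Slc1a4 at 2.09, and just outside were Ahi1 at 1.99, Cd63 at 1.99 and Mvd, of sterol synthesis, at 1.98. Just inside the floor of 3 FPKM were Aldh1l2 at 3.08, Cxcl11 at 3.10 and Slc7a3 at 3.31, and just outside were Cyp26a1 at 2.62 and St3gal3 at 2.52.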

How the data were processed

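Per the labels and the study's methods, single-end reads of 50 bp were aligned to rn6 with STAR 2.5.2a after bcl2fastq 2.17.1.14, and transcripts of RefSeq were quantified and normalised with StringTie and Ballgown. The authors deposited 1 FPKM value per gene and library. Counts were not used here, so read depth and counting error are unknown. The labels gave the groups. The chosen genes, lists and tests were taken with earlier results of these data known, and role groups, 3 motifs and the rule for listed zeros (0 beside at least 5 FPKM within a group) were set after the genes were seen. Tests between groups used the lmFit and eBayes functions of limma 3.58.1 under R 4.3.3 on log2(FPKM + 1), with Benjamini-Hochberg adjustment over all genes tested, and the procedure was tested on simulated data. Nothing in the labels says that libraries numbered alike share animals, so p-values measure the spread between these libraries. Genes were named if they stood in a list, were among the 25 highest ratios or 10 highest D6 means, were among the 5 largest called rises or falls of a comparison, or lay next to a threshold, and the other chosen genes were named after their values were seen, as were Cd8b and Mvd. Some genes that this rule selects are counted but not reported here. Symbols were matched by gene identifier for 17172 of 17322 genes. Figures were drawn with matplotlib 3.10.9 in Python 3.11.15.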

Additional observations from a re-analysis of the deposited data

How the results depend on the processing

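Counts of called genes kept within 1.5 times of the values reported under the alternatives of filter, pseudocount, normalisation, prior variance, fold and block, with 3 exceptions. For D22 against D16, where 0 were called, the fit of all 10 groups gave 1 (Trib3), and leaving out single libraries gave 0 to 1, the 1 being Rpl30, without D16 replicate 3, where it is listed at 0. The fit of all 10 groups took its spread also from libraries that the rule used. Of all genes, 18 were called there as reported, 46 in the fit of all 10 groups, 27 with a ratio of medians of at least 1.5, 4 with the block and 8 to 19 without single libraries. For 53.5 against 24.5 dpp, a filter of a median of at least 2 FPKM gave 13 in place of 22, since fewer genes were tested, and leaving out single libraries gave 19 to 22. The same gave 22 to 25 for D16 against 24.5 dpp and 25 to 28 for D22 against 30.5 dpp. No chosen gene called in a comparison reversed its direction there, and genes that were not called were not checked for this. Among single genes 29 calls were lost, 23 of them of Atp5po, Cox17 and Rpl6, which are listed at 0 in some libraries. Of the others, Tm7sf2 lost its adult call in 3 settings, and Cd8a, Cyp51 and Tgfbi lost 1 call each. Without the 6 genes of listed zeros, an alternative chosen after seeing the data, the 4 counts were 0, 23, 25 and 19.

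The rule itself was sensitive to its limits: a ratio of at least 1.5 gave 96 genes, a ratio of at least 3 gave 11, and a D6 mean of at least 10 FPKM gave 22. Leaving out 1 library gave between 31 and 46 genes, the latter without D28 replicate 1.

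Libraries of the same number did not deviate together (correlations of -0.0739 to 0.0858). With 3 libraries per group this cannot show whether they share animals, which the labels do not say. With the replicate number as a block, 0, 26, 26 and 22 of the chosen genes were called in D22 against D16, D16 against 24.5 dpp, D22 against 30.5 dpp and 53.5 against 24.5 dpp.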

Other observations

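Over the 11 listed sterol genes with Msmo1 and Tm7sf2, D28 replicate 1 was the lowest of its group in 11 of 13 genes, which held for 40.7% of the 8805 genes expressed at D6, and D6 replicate 3 was the lowest in 8 of 13, against 40.2%. D22 showed no common order, with replicate 2 the lowest in 6 and the highest in 6, while D16 replicate 3 was the lowest in 9, against 31.0%. Among the 9 chemokine, adhesion, matrix and leukocyte genes, D28 replicate 1 was instead the highest in 6, against 40.2% of all genes, and D16 replicate 1 the highest in 8, against 35.9%. These libraries were picked after their values were seen, and nothing was tested.

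With the ratio lowered to 1.5, the rule took in 8 of the 11 sterol genes, Hmgcs1, Idi1 and Sqle among those added. It also took in Timp1, an inhibitor of matrix metalloproteinases, Atf3, a stress-induced transcription factor, and Srxn1, an antioxidant enzyme. From the interferon-stimulated gene, heat shock and hypoxia and glycolysis lists it took in none.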
